A study of Arabidopsis thaliana with 46 samples.

Results

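The genes described here are 34 genes of jasmonate synthesis and signaling in Arabidopsis thaliana (ecotype Col-0), taken by gene ID from a list of pathway genes, out of 33016 gene IDs in the N-dose and root tables and 33341 in the CHX tables. They comprise 6 lipoxygenases, 8 further synthesis enzymes, the conjugating enzyme JAR1, the receptor COI1, the adaptor NINJA, 3 MYC transcription factors (TFs), 12 JAZ repressors and 2 cytochromes P450 of hormone breakdown. They were followed in 46 poly(A) RNA-seq libraries, in 3 experiments and 14 labelled groups with 3 or 4 replicates each.

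In the first experiment, roots of whole seedlings were compared with protoplasts (root cells freed of their walls) at 0N, where KCl (20 mM) was given, and at 60N, where KNO3 and NH4NO3 (20 mM each) were given (Root_0N, Root_60N, Protoplast_0N and Protoplast_60N, n = 4 each), with neither of the 2 drugs below. Per the methods, these protoplasts carried the empty vector (EV) and were sorted, and the whole plants stood in liquid medium, so protoplasting, transfection, sorting and growth conditions cannot be told apart in that comparison. The other experiments used the TARGET assay, in which protoplasts receive a vector for TGA4, a bZIP TF, fused to part of the glucocorticoid receptor, or EV. Dexamethasone (DEX, 10 µM) lets the fusion protein enter the nucleus, and cycloheximide (CHX, 35 µM) blocks translation. In the CHX experiment both vectors were assayed without CHX (EV_mChx, TGA4_mChx) and with it (EV_pChx, TGA4_pChx), and in the N-dose experiment both were assayed with CHX at 0N, at 5N (KNO3, 5 mM) and at 60N (EV_0N, EV_5N, EV_60N, TGA4_0N, TGA4_5N, TGA4_60N), n = 3 each, all with DEX. The labels give an age of 10 days for all seedlings. Per the methods, the whole plants of the first experiment grew for longer than that before their N treatment. The labels do not give the N dose of the CHX experiment, and per the methods it was that of 60N. Per the methods, all wells of a vector within 1 of these experiments were split from 1 lot of transfected cells. Both CHX conditions, or all 3 N doses, of a vector thus share a transfection. Vector and transfection cannot be told apart, and p-values measure the spread between wells. Comparisons of TGA4 with EV within an experiment are therefore not independent repeats.

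Jasmonates are oxidised fatty acid hormones, known for the response to wounding and insect attack and for the inhibition of root growth. Their synthesis begins in the plastid, where 13-lipoxygenases oxygenate linolenic acid, allene oxide synthase (AOS) and allene oxide cyclases (AOC) form the ring compound OPDA, and peroxisomal enzymes shorten it to jasmonic acid, which JAR1 joins to isoleucine. The conjugate brings the receptor COI1 to JAZ proteins, the repressors of MYC TFs, and their destruction frees MYC2 and its relatives to switch on target genes. These targets are known to include JAZ genes and synthesis genes themselves, so that repression is restored while synthesis is reinforced.

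Libraries held 9.68 to 17.5 M (megacounts) in the root and protoplast experiment, 7.84 to 16.2 M in the N-dose experiment and 2.40 to 8.18 M in the CHX experiment. Levels are given as counts per megacount of the TMM-scaled library total (CPM), and a library's floor of 3 counts lay between 0.125 and 1.21 CPM. TGA4 itself, carried by the vector, read 32.1 to 57.3 CPM in the EV and 5156 to 6711 CPM in the TGA4 libraries of the N-dose experiment, and 28.8 to 47.0 against 8588 to 25897 CPM in the CHX experiment, so the TARGET libraries matched their labels. It read 54.0 to 228.0 CPM in the Protoplast and 29.5 to 36.4 CPM in the Root libraries. Single libraries stood apart, namely Protoplast_0N replicate 2 (228.0 CPM, others 54.0 to 62.6) and Protoplast_60N replicate 1 (166 CPM, others 77.2 to 82.2). A list of 14 genes that mark root cell types was detected in full in every Root library, with a summed level of 368 to 444 CPM, and summed to 151 to 188 CPM in the Protoplast libraries, where 11 to 13 of the 14 had a count and, at 0N as at 60N, 12 were called lower than in Root and 2 (APL and SCR) higher. In the TARGET libraries 8 to 13 of them had a count, their sum was 62.6 to 212 CPM, and the cortex marker AT1G62500 was at 0 throughout. A list of 6 genes of photosynthetic tissue summed to 19.9 to 84.3 CPM in Root, 168 to 290 CPM in Protoplast, 113.3 to 209.5 CPM in the N-dose and 7.05 to 37.9 CPM in the CHX libraries, and the part of either list in the results was not tested. The higher sum in Protoplast came from 1 gene, the carbonic anhydrase gene CA1, since at 0N 4 of the other 5 were called lower than in Root and GAPA was not called, and at 60N all 5 were lower. EV_mChx replicate 2 and EV_5N replicate 3 stood apart from their groups on the second principal component of their experiment, so values without them are given where a result rests on them.

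MYC TFs are known to bind the G-box (CACGTG) and TGA TFs the letters TGACG, and 7 upstream sequences are shown for that reason, those of AOS, JAZ2, JAZ3, JAZ7 and JAZ8 because they hold a G-box and those of LOX6 and AOC2 because of their response to TGA4. Each is the 300 bases before the annotated start of the gene in RefSeq's annotation of the TAIR10.1 assembly, 5′ to 3′ on the strand of the gene, with matches to CACGTG, to AACGTG and CACGTT (the T/G-box on either strand), and to TGACG and CGTCA (longer where they spell TGACGT or ACGTCA) in capitals. AOS lies on the minus strand and its window is chr5:17099596-17099895. That of JAZ2, also on the minus strand, is chr1:28150447-28150746. The plus-strand windows are chr3:6119407-6119706 for JAZ3, chr2:14572730-14573029 for JAZ7, chr1:10596052-10596351 for JAZ8, chr1:25319504-25319803 for LOX6 and chr3:9406369-9406668 for AOC2.
AOS: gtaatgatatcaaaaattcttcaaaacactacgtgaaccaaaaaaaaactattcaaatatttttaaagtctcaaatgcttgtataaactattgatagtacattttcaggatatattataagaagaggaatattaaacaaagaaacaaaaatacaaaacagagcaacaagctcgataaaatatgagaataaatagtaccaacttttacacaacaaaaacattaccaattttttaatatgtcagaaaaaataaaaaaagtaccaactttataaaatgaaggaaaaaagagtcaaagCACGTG
JAZ2: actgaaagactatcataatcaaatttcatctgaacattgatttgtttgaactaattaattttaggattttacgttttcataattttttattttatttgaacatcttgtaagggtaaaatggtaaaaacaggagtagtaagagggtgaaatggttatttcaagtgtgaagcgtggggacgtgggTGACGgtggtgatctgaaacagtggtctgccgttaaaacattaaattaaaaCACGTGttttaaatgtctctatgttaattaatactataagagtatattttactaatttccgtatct
JAZ3: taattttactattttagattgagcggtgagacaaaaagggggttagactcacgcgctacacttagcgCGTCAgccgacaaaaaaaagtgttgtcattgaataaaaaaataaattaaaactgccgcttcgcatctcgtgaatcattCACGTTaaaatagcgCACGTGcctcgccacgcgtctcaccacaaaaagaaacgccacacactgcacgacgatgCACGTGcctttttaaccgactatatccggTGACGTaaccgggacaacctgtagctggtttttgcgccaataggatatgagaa
JAZ7: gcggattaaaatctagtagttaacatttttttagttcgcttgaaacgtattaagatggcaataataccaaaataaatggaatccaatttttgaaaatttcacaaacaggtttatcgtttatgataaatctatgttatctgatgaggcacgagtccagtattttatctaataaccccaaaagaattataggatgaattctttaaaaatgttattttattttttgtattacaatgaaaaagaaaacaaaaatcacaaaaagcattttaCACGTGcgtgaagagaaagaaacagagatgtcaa
JAZ8: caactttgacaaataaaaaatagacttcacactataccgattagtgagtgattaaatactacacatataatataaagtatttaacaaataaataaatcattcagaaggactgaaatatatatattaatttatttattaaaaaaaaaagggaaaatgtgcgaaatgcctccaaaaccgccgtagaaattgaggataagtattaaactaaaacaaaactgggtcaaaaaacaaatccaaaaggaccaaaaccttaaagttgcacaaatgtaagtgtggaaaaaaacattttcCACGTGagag
LOX6: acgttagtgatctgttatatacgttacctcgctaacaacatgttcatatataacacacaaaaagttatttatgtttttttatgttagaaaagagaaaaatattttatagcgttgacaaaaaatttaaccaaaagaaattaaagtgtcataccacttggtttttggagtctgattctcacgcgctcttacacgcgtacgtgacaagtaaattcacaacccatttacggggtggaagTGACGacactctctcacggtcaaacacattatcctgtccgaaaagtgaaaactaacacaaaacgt
AOC2: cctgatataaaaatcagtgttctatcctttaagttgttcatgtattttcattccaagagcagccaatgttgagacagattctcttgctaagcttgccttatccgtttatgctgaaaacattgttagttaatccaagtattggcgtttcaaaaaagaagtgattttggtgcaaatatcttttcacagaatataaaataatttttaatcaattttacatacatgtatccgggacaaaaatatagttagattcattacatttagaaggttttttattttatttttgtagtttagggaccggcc

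The first 5 windows each hold a G-box, which is next to the start of the gene in AOS and near it in JAZ8 and occurs at 2 places in JAZ3. Among all 34 members, 6 windows held CACGTG (17.6%), the sixth being that of the acyl-CoA oxidase gene ACX1, against 7.09% of the windows of 27443 protein-coding genes. The windows of LOX3, LOX4, OPCL1, JAZ1, JAZ5, JAZ10, CYP94B3 and CYP94C1, on which results below also turn, held no CACGTG. The T/G-box was in 7 member windows (20.6%, against 8.71%), the letters TGACG in 9 (26.5%, against 21.3%) and TGACGT, which contains TGACG, in 1, that of JAZ3 (2.94%, against 8.72%). LOX6 and AOC2, the members that rose in every TGA4 comparison below, differed in this respect, since the window of LOX6 held 1 TGACG and that of AOC2 none of the 4 motifs. A match is a run of letters and not a measured binding site.

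**Figure D1:**
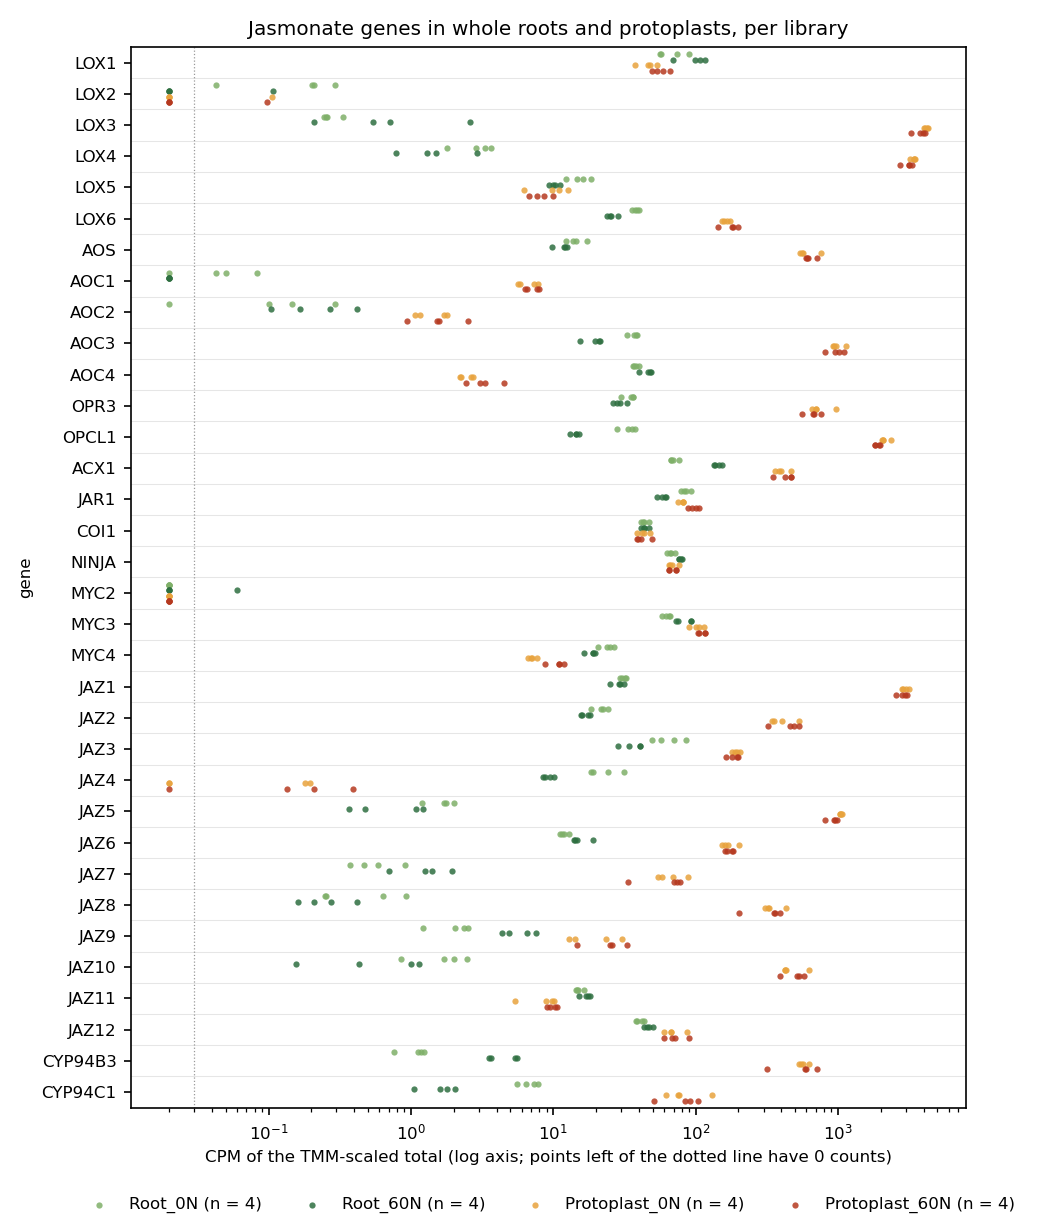
Level of each of the 34 genes in every library of the root and protoplast experiment, in CPM on a log axis, with 1 point per library (n = 4 per group) and libraries with 0 counts left of the dotted line. LOX3, LOX4 and most JAZ genes lie far to the right in protoplasts, COI1 and NINJA lie close together in all 4 groups, and JAZ4 and AOC4 lie to the left in protoplasts.

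To ask how the pathway stood in protoplasts beside intact roots, Protoplast and Root libraries were compared at each N supply. At 0N, 23 members were higher and 6 were lower in protoplasts, among 32 tested (edgeR quasi-likelihood test, Benjamini-Hochberg adjusted p under 0.05, the rule for every call here). The background was large, since 86.4% of all 21007 genes tested were called, 40.4% higher and 46.0% lower. The median log2 fold change of the tested members was 3.49, beside -0.15 over all genes. The 34 genes took 0.114% to 0.121% of all counts in the Root libraries and 1.29% to 1.45% in the Protoplast libraries. LOX2 (AT3G45140), a leaf lipoxygenase, stayed at 0 to 0.293 CPM in these libraries and was not tested, and MYC2 could not be measured there for the reason given below. In bulk samples such as these, a change in the share of a cell type and a change in RNA per cell cannot be told apart. Fold changes are log2 values with their standard error (SE).

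Of the 13-lipoxygenases, which open the pathway, LOX3 and LOX4 showed the widest gap of all members. LOX3 (AT1G17420) read 0.244, 0.334, 0.253 and 0.256 CPM in the 4 Root_0N libraries and 4269.8, 4231, 4009 and 4071 CPM in Protoplast_0N (13.84 ± 0.40, adjusted p = 3.73e-18). LOX4 (AT1G72520) read 3.32, 2.88, 3.64 and 1.79 CPM against 3225, 3468, 3399 and 3405 CPM (10.19 ± 0.27, adjusted p = 1.12e-18). The groups lay far apart in both genes, and the protoplast libraries differed little among themselves. LOX6 (AT1G67560), a root lipoxygenase known for early jasmonate formation after wounding, was already present in roots at 37.9 ± 1.79 CPM (mean ± SD, n = 4) and reached 163 ± 9.71 CPM (2.1 ± 0.10, adjusted p = 8.69e-15). The 9-lipoxygenases LOX1 (AT1G55020) and LOX5 (AT3G22400), which make other oxylipins, went the other way, with -0.58 ± 0.16, adjusted p = 0.00198 for LOX1 and -0.63 ± 0.17, adjusted p = 0.00188 for LOX5, whose groups overlapped.

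Of the 8 further synthesis enzymes, 7 were higher and 1 was lower in Protoplast_0N. AOS (AT5G42650), the committed step, read 17.3, 14.5, 13.7 and 12.2 CPM in roots and 759, 545, 568 and 559 CPM in protoplasts (5.39 ± 0.15, adjusted p = 1.49e-18). OPCL1 (AT1G20510), the CoA ligase that admits the precursors to beta-oxidation, read 35.5, 37.7, 33.7 and 28.1 against 2341, 2064, 2065 and 2036 CPM (5.98 ± 0.13, adjusted p = 8.52e-20). Replicate 1 was the highest protoplast library for both, and every protoplast library lay above every root library. The 4 AOC genes encode the same enzyme, and they did not move together. AOC3 (AT3G25780) rose from 36.8 ± 2.57 to 991 ± 103 CPM (4.75 ± 0.14, adjusted p = 3.72e-18), while AOC4 (AT1G13280) fell, from 39.7, 38.1, 36.2 and 36.7 CPM to 2.23, 2.64, 2.75 and 2.26 CPM (-3.93 ± 0.14, adjusted p = 9.36e-17). AOC1 (AT3G25760), with 0, 0.0836, 0.0505 and 0.0427 CPM in roots and 5.83, 5.68, 7.30 and 7.86 CPM in protoplasts, and AOC2 (AT3G25770), with 0.135 ± 0.122 CPM in roots and 1.44 ± 0.369 CPM in protoplasts, also rose but stayed at low levels (3.32 ± 0.53 for AOC2). For AOC1 the 4 Root_0N libraries held 4 counts in all and the Protoplast_0N libraries 269, a ratio of 147 with an exact 95% interval of 56.6 to 542 that covers counting error only (adjusted p = 1.41e-12). AOC1, AOC2 and AOC3 lie side by side on chromosome 3, and 2.20%, 0.0832% and 1.60% of their 50-base stretches occur elsewhere in the genome, so few of their reads could be shared. OPR3 (AT2G06050), the peroxisomal OPDA reductase, and ACX1 (AT4G16760), an acyl-CoA oxidase of beta-oxidation, rose by 4.47 ± 0.14 and 2.53 ± 0.11.

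The repressors formed the largest group. Among 12 JAZ genes, 10 were higher and 2 were lower in Protoplast_0N, and for all 12 the groups did not overlap, as was the case for 82.8% of all genes tested and for 28 of the 32 members. JAZ8 (AT1G30135), whose protein lacks the usual signal for COI1-dependent destruction, read 0.928, 0.251, 0.253 and 0.641 CPM in roots and 435, 324, 330.3 and 305 CPM in protoplasts (9.38 ± 0.29, adjusted p = 1.01e-17). JAZ5 (AT1G17380) read 2.0, 1.76, 1.72 and 1.2 against 1045, 1072, 1042 and 1041 CPM (9.30 ± 0.20, adjusted p = 8.86e-20). Both were close to silent in roots and among the well-expressed members in protoplasts. JAZ10 (AT5G13220), known for splice forms that resist destruction, read 2.49, 2.01, 1.72 and 0.854 against 628, 425, 425 and 431 CPM (8.08 ± 0.28, adjusted p = 8.14e-17), and a short noncoding gene overlaps 71 of its bases. JAZ7 (AT2G34600) read 0.586, 0.376, 0.910 and 0.470 against 88.2, 54.4, 58.5 and 69.2 CPM (6.86 ± 0.31, adjusted p = 7.34e-15). JAZ1 (AT1G19180) differed from these in that roots held it at 30.3, 31.8, 32.4 and 29.3 CPM, and protoplasts at 3130.3, 3017, 2849 and 2831 CPM (6.58 ± 0.13, adjusted p = 5.11e-20).

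JAZ4 (AT1G48500) ran opposite to its relatives. It read 19.0, 31.3, 18.3 and 24.3 CPM in Root_0N and 0, 0.196, 0 and 0.181 CPM in Protoplast_0N, the latter from 0 to 2 counts per library (adjusted p = 3.03e-14). The summed counts were 2067 and 4, so the level per scaled total was 237 times as high in roots, with an exact 95% interval of 92.4 to 870 that covers counting error only. JAZ11 (AT3G43440) was also lower (-0.83 ± 0.14). JAZ2 (AT1G74950), JAZ6 (AT1G72450), JAZ9 (AT1G70700), JAZ3 (AT3G17860) and JAZ12 (AT5G20900) were higher by 4.24, 3.84, 3.30, 1.55 and 0.80. JAZ12 shares 239 of its bases with neighbouring genes, so some of its reads may be theirs.

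Among the genes of conjugation and perception, JAR1, COI1 and NINJA did not share this movement. COI1 (AT2G39940) read 42.4, 43.4, 41.1 and 47.2 CPM in Root_0N and 43.6, 48.0, 41.8 and 38.7 CPM in Protoplast_0N. NINJA (AT4G28910), which ties JAZ proteins to the corepressor TOPLESS, read 66.9 ± 3.38 and 68.7 ± 5.47 CPM, and JAR1 (AT2G46370) read 85.2 ± 6.38 and 79.8 ± 3.40 CPM. Their log2 differences of -0.02 ± 0.09, adjusted p = 0.854 for COI1, 0.04 ± 0.08, adjusted p = 0.638 for NINJA and -0.09 ± 0.08, adjusted p = 0.285 for JAR1 did not pass the test. That rests on the scaling, since with unscaled totals the 3 were called lower, at -0.97, -0.92 and -1.05, close to the shift of the median gene given below. Of the MYC factors, MYC3 (AT5G46760) was higher (0.71 ± 0.10) and MYC4 (AT4G17880) lower (-1.75 ± 0.12). The breakdown enzymes CYP94B3 and CYP94C1, which oxidise the active conjugate, were both higher. CYP94B3 (AT3G48520) read 1.12, 1.17, 0.758 and 1.24 CPM in roots and 629, 533, 553 and 567 CPM in protoplasts (9.03 ± 0.26, adjusted p = 4.67e-18), and CYP94C1 (AT2G27690) rose by 3.66 ± 0.23.

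Per kb of exon, the order of the members changed between the materials. In Root_0N the highest were JAZ12 at 37.4 ± 2.51 CPM per kb, NINJA at 33 ± 1.67 and JAR1 at 31.3 ± 2.34, the last pair differing by less than the SD of JAR1. In Protoplast_0N they were JAZ1 at 1639 ± 79.2 CPM per kb, LOX3 at 1343 ± 40.6 and LOX4 at 1108 ± 34.2, each separated from the next by several SD. Without scaling factors, the median of all genes in this comparison moved from -0.15 to -1.10, and under that alternative MYC3 was lower in protoplasts (-0.25, adjusted p = 0.0156), JAZ12 had a difference of -0.16 (adjusted p = 0.172), and the calls split 21 higher to 10 lower.

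At 60N the picture was much the same, with 24 members higher and 6 lower of 32 tested, beside 85.3% of all genes called (40.8% higher, 44.5% lower). Of the 29 members called at 0N, 28 were called at 60N, all in the same direction. The share of all genes called at both supplies was not computed, and most genes were called at each. LOX3 read 2.60, 0.541, 0.717 and 0.209 CPM in roots and 3740.0, 3261, 4078 and 3942 CPM in protoplasts (11.85 ± 0.36, adjusted p = 9.15e-18). LOX4 read 2.93, 1.30, 1.49 and 0.783 and 3332, 2711, 3158 and 3167 CPM (10.89 ± 0.28, adjusted p = 9.31e-19). Both genes were again nearly absent from roots and high in every protoplast library. JAZ8 read 0.276, 0.162, 0.418 and 0.209 and 202, 359, 355 and 389.6 CPM (10.24 ± 0.32, adjusted p = 1.25e-17), and JAZ5 read 1.22, 1.08, 0.478 and 0.365 and 811, 943, 991 and 953 CPM (10.18 ± 0.22, adjusted p = 7.99e-20). AOC1 had no count in any Root_60N library and 6.59, 6.37, 7.95 and 7.68 CPM in Protoplast_60N, at least 39.9-fold higher against the floor of 3 counts per library. JAR1 was higher in protoplasts here, with scaling factors (0.73 ± 0.08, adjusted p = 4.65e-08), where roots held less of it than at 0N, but without scaling factors its difference was -0.10 (adjusted p = 0.279). Under that alternative MYC3 was lower (-0.42, adjusted p = 0.000198), JAZ12 had -0.18 (adjusted p = 0.122), and the calls split 21 higher to 9 lower. NINJA was called lower (-0.18 ± 0.08, adjusted p = 0.0367), a call that was lost without Protoplast_60N replicates 1 or 2 or Root_60N replicate 2 (log2 fold change -0.17, adjusted p 0.0741 to 0.0769) and with the replicate number as a block (adjusted p = 0.0536) or the compared groups alone (adjusted p = 0.0614). COI1 again did not pass the test (-0.05 ± 0.09, adjusted p = 0.642).

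Of 36 other genes of the pathway, listed beside the members, 30 were tested at 0N and 26 were higher and 3 lower in protoplasts. The 6 called genes with the largest change all rose. They were RRTF1, a redox-responsive TF gene (12.82 ± 0.26), AT2G38240 (12.69 ± 0.30), the TF gene NAC019 (12.46 ± 0.28), the jasmonate-regulated gene JRG21 (11.47 ± 0.34), the lipase gene DGL and the tyrosine aminotransferase gene TAT3 (9.91 ± 0.33). DGL had no count in Root_0N and 19.9 ± 4.89 CPM in Protoplast_0N, at least 131-fold higher against the floor. TPL, which encodes TOPLESS, and ORA59, a TF gene of the ethylene and jasmonate branch, were among the 3 that fell, by 2.16 and 3.03 on the log2 scale.

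**Figure D2:**
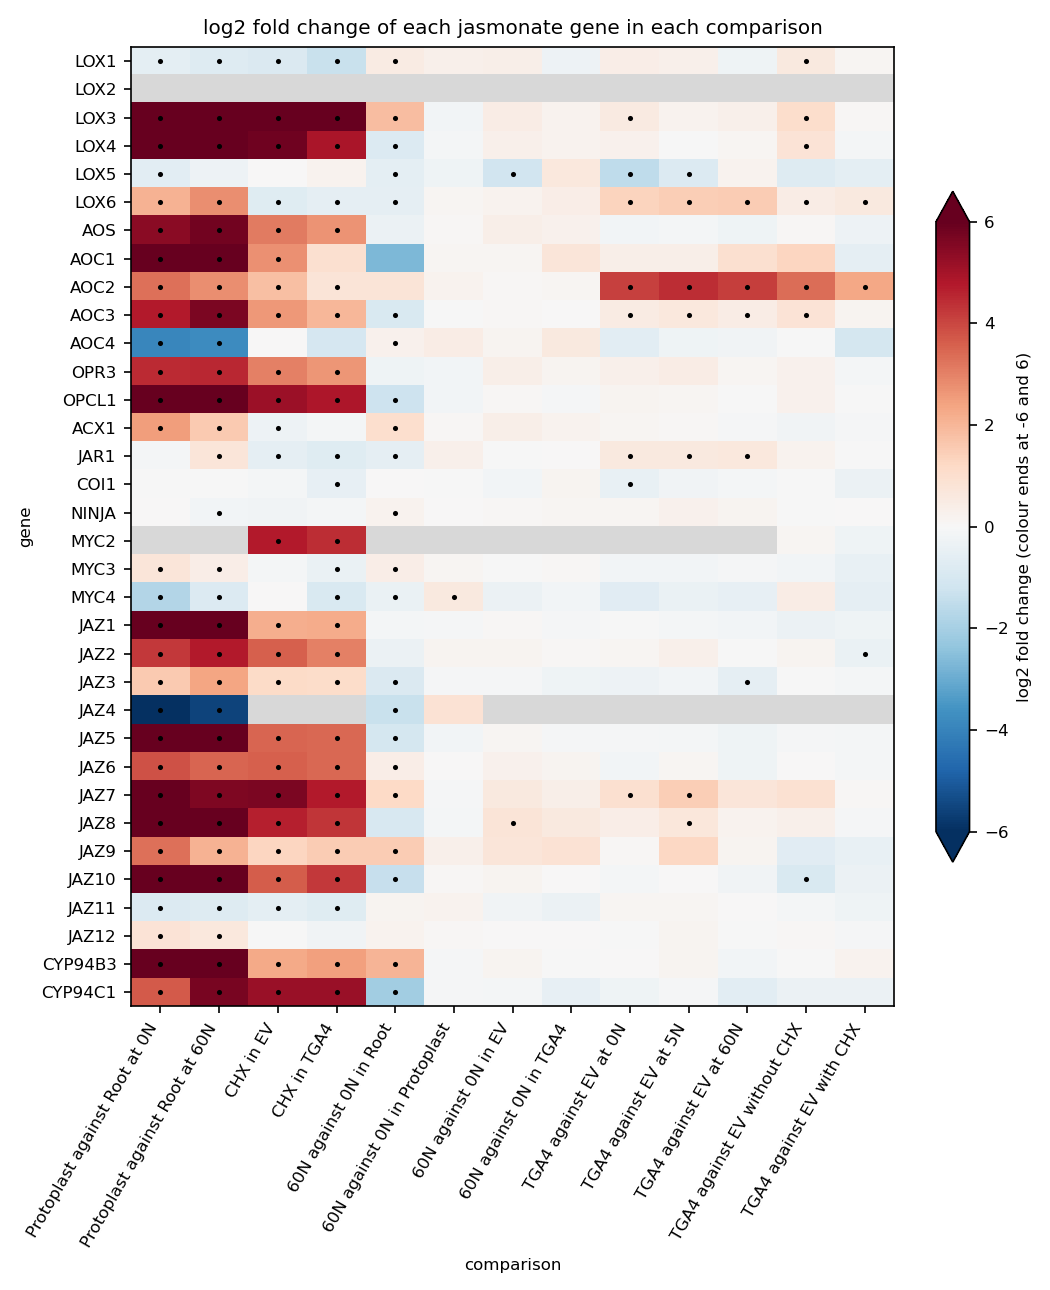
Log2 fold change of each of the 34 genes (rows) in 13 comparisons (columns), red for higher and blue for lower in the first-named group, with a black dot where adjusted p was under 0.05 and grey where the gene was not tested. The protoplast and CHX columns are red for most members, the TGA4 columns are near white apart from AOC2 and a few others, and the fitted values of AOC1 and JAZ4 in the Protoplast against Root columns, where 1 group had 0 to 4 counts per library, depend on the prior count and are not bounds.

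The second question was how N supply moved the pathway. In whole roots, 60N against 0N called 22 of 32 tested members, 10 higher and 12 lower, beside 43.2% of all genes (17.4% higher, 25.7% lower), and their median log2 fold change was -0.28 beside -0.09 over all genes. The members of 1 role often went both ways. The breakdown enzymes parted, with CYP94B3 at 1.12, 1.17, 0.758 and 1.24 CPM in Root_0N and 5.36, 3.52, 3.64 and 5.59 CPM in Root_60N (2.06 ± 0.28, adjusted p = 3.68e-06), and CYP94C1 at 5.57, 6.48, 7.83 and 7.30 and 1.60, 2.06, 1.79 and 1.04 CPM (-2.07 ± 0.30, adjusted p = 1.01e-05). Neither pair of groups overlapped, which held for 43.2% of all genes tested in this comparison. Among repressors, JAZ9 read 2.35, 2.51, 1.21 and 2.05 and 7.51, 4.92, 4.36 and 6.58 CPM (1.51 ± 0.31, adjusted p = 0.000409), and JAZ10 read 2.49, 2.01, 1.72 and 0.854 and 0.994, 0.433, 1.13 and 0.157 CPM (-1.39 ± 0.40, adjusted p = 0.00802), with overlapping groups. JAZ6 and JAZ7 were also higher (0.38 ± 0.11 and 1.2 ± 0.45), and JAZ3, JAZ4 and JAZ5 lower (-0.87 ± 0.14, -1.34 ± 0.18 and -1.07 ± 0.27). The call of JAZ7 was lost without Root_0N replicates 1, 2 or 4 or Root_60N replicates 1, 3 or 4 (log2 fold change 0.96 to 1.22, adjusted p 0.0551 to 0.151) and with the replicate block (adjusted p = 0.0530).

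Among synthesis genes, ACX1 was higher at 60N, with 69.6, 66.9, 76.2 and 67.5 against 146, 136, 135 and 152 CPM (1.02 ± 0.10, adjusted p = 8.25e-08), and OPCL1 was lower, with 35.5, 37.7, 33.7 and 28.1 against 13.2, 14.6, 14.4 and 15.2 CPM (-1.23 ± 0.11, adjusted p = 1.64e-08). In both genes every library of one group lay above every library of the other. AOC3, LOX4, LOX5, LOX6, JAR1 and MYC4 were lower, by 0.93, 0.83, 0.60, 0.55, 0.54 and 0.38 on the log2 scale. AOC4, LOX1, MYC3 and NINJA were higher, by 0.28, 0.49, 0.41 and 0.23. Some of these calls depended on single libraries. The call of LOX4 was lost without Root_0N replicates 1 or 3 or Root_60N replicates 2 or 4 (log2 fold change -0.76 to -0.59, adjusted p 0.0526 to 0.0802), and when the compared groups were fitted alone (adjusted p = 0.102). AOC4 was no longer called without Root_0N replicates 2, 3 or 4 or Root_60N replicates 2, 3 or 4 (log2 fold change 0.25 to 0.28, adjusted p 0.0533 to 0.084), or with unscaled totals (adjusted p = 0.0529). MYC4 lost its call without the filter on low counts (-0.29, adjusted p = 0.0529). LOX1 failed the test without Root_0N replicates 1 or 4 or Root_60N replicate 1 (log2 fold change 0.40 to 0.41, adjusted p 0.0514 to 0.0568), and NINJA without Root_0N replicates 2 or 3 or Root_60N replicate 2 (log2 fold change 0.20 to 0.22, adjusted p 0.0505 to 0.067). The groups overlapped for LOX1, LOX3, LOX4, JAZ5, JAZ7 and JAZ10 among the members called in roots. The higher call of LOX3 (1.85 ± 0.55, adjusted p = 0.00973) rested on 1 library, since Root_60N read 2.60, 0.541, 0.717 and 0.209 CPM, and it was lost without Root_60N replicate 1 (log2 fold change 0.79, adjusted p 0.121).

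In protoplasts the same change of N supply called 1 of 32 members, beside 2.41% of all genes (1.53% higher, 0.876% lower). MYC4 read 6.68, 6.95, 7.72 and 7.14 CPM in Protoplast_0N and 10.9, 12, 11 and 8.71 CPM in Protoplast_60N (0.58 ± 0.13, adjusted p = 0.0184), and the call was lost without Protoplast_0N replicates 1, 2 or 4 or Protoplast_60N replicates 2 or 3 (log2 fold change 0.49 to 0.56, adjusted p 0.0547 to 0.0794). The N effect itself differed between protoplasts and roots for 13 members (interaction test), beside 24.4% of all genes (14.2% higher, 10.2% lower). For 9 of them the log2 effect was higher in protoplasts, and all 9 had been lower at 60N in roots. CYP94C1 read 131, 62.2, 74.9 and 76.6 CPM in Protoplast_0N and 50.7, 105, 90.9 and 84.1 CPM in Protoplast_60N, overlapping groups, and its effects differed by 2.01 ± 0.36, adjusted p = 0.000309. JAZ10 read 628, 425, 425 and 431 and 389, 576, 533 and 512 CPM (difference of effects 1.46 ± 0.45, adjusted p = 0.0203). OPCL1 read 2341, 2064, 2065 and 2036 and 1814, 1968, 1943 and 1834 CPM (1.06 ± 0.15, adjusted p = 2.37e-05). These members were high in protoplasts at either supply, while their root levels were lower at 60N. For MYC4 the effects differed by 0.95 ± 0.17, adjusted p = 0.000224. AOC3 read 1142, 969.9, 918 and 933 and 805, 1096, 1016 and 959 CPM in protoplasts and 38.1, 39.1, 36.7 and 33.2 and 15.4, 19.8, 21.3 and 20.9 CPM in roots (0.90 ± 0.17, adjusted p = 0.000499). JAR1 read 80.9, 81.4, 74.8 and 82.2 and 106, 94.1, 101 and 88.8 CPM in protoplasts and 78.5, 93.5, 86.3 and 82.5 and 61.1, 61.9, 53.8 and 58.4 CPM in roots (0.82 ± 0.12, adjusted p = 2.04e-05). The root groups were apart in both genes, while the protoplast groups overlapped for AOC3 and lay apart, slightly higher at 60N, for JAR1.

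Among the remaining members of this kind, LOX6 read 175, 157, 153 and 166 and 184, 145, 197 and 179 CPM in protoplasts and 35.6, 38.6, 37.6 and 39.8 and 28.6, 25.7, 23.9 and 25.2 CPM in roots (0.67 ± 0.13, adjusted p = 0.00074). JAZ3 read 206, 189, 194 and 179 and 163, 199.8, 194 and 181 CPM in protoplasts and 70.0, 57.5, 49.6 and 85 and 28.5, 33.9, 40.6 and 40.4 CPM in roots (0.81 ± 0.19, adjusted p = 0.00373). JAZ5 read 1045, 1072, 1042 and 1041 and 811, 943, 991 and 953 CPM in protoplasts (0.89 ± 0.30, adjusted p = 0.0344), and its difference was lost without Protoplast_0N replicates 1, 2, 3 or 4 or Protoplast_60N replicates 2, 3 or 4 or Root_0N replicates 1, 2 or 3 or Root_60N replicates 3 or 4 (log2 fold change 0.64 to 0.87, adjusted p 0.0502 to 0.11), with the replicate block (adjusted p = 0.0509) and without the low-count filter (adjusted p = 0.0664). For JAZ10 the difference was lost without Protoplast_0N replicates 2, 3 or 4 or Protoplast_60N replicates 2 or 3 or Root_0N replicate 1 or Root_60N replicates 2 or 4 (log2 fold change 1.12 to 1.32, adjusted p 0.0518 to 0.0587).

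For the other 4 the effect was lower in protoplasts, and all had been higher at 60N in roots. CYP94B3 read 629, 533, 553 and 567 CPM in Protoplast_0N and 319, 709, 585 and 594 CPM in Protoplast_60N (-2.11 ± 0.33, adjusted p = 5.81e-05), and ACX1 read 465, 363, 401 and 388 and 352, 423, 471 and 469 CPM (-0.94 ± 0.15, adjusted p = 6.16e-05). JAZ9 read 30.2, 12.8, 14.3 and 23.5 and 14.8, 33, 26.1 and 24.9 CPM (-1.22 ± 0.40, adjusted p = 0.0286). The protoplast groups overlapped in all 3 genes. LOX3, whose protoplast values stand above, had a difference of -1.99 ± 0.59, adjusted p = 0.0172, which was lost without Root_60N replicate 1 (log2 fold change -0.93, adjusted p 0.112). That of JAZ9 was lost without Root_0N replicate 3 or Root_60N replicates 1 or 4 (log2 fold change -1.15 to -1.04, adjusted p 0.0518 to 0.0678).

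In the TARGET protoplasts with CHX, N supply moved few members. With EV, 60N against 0N called 2 of 31 tested, beside 3.59% of all genes (2.30% higher, 1.30% lower). LOX5 read 9.32, 10.5 and 9.42 CPM at 0N and 4.62, 5.00 and 3.49 CPM at 60N (-1.13 ± 0.21, adjusted p = 0.0048), and JAZ8 read 148, 186 and 184 and 215, 382 and 280.1 CPM (0.76 ± 0.20, adjusted p = 0.0367). Neither pair of groups overlapped (18.2% of all genes tested did not), but the JAZ8 call was lost without EV_0N replicates 1, 2 or 3 or EV_60N replicates 2 or 3 or TGA4_60N replicate 1 (log2 fold change 0.52 to 0.82, adjusted p 0.0518 to 0.138). With the compared groups alone neither gene was called, LOX5 having -1.14 (adjusted p = 0.0561) and JAZ8 0.76 (adjusted p = 0.163), and with unscaled totals JAZ8 missed the threshold too (adjusted p = 0.0690). For 5N against 0N with EV, and for 60N or 5N against 0N with TGA4, edgeR called 0 of 31 members, beside 1.59% (1.04% higher, 0.556% lower), 3.03% (1.80% higher, 1.23% lower) and 0.273% (0.273% higher, 0.00% lower) of all genes. At an unadjusted p under 0.05 these comparisons held 3, 7 and 2 of the 31 members, beside 3268, 2939 and 975 of all 18342 genes tested. DESeq2 called 1, 1 and 0 members.

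**Figure D3:**
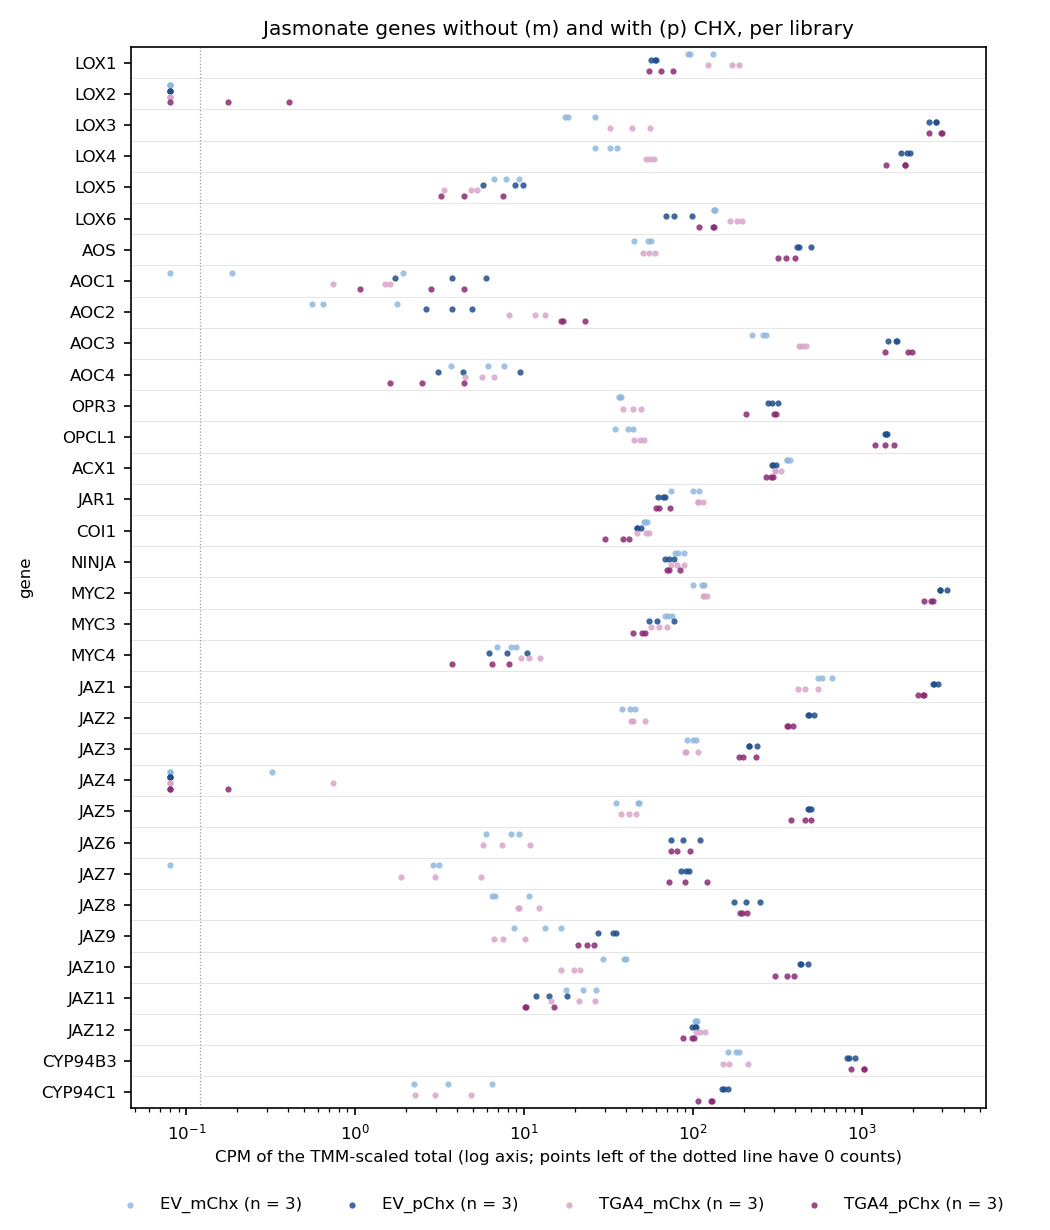
Level of each of the 34 genes in every library of the CHX experiment, in CPM on a log axis, with 1 point per library (n = 3 per group) and libraries with 0 counts left of the dotted line. For LOX3, LOX4, OPCL1, JAZ8 and JAZ10 all CHX libraries (dark points) lie to the right of all libraries without CHX with both vectors, whereas the points of NINJA and JAZ12 lie close together.

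The third question was what blocking translation did. In EV protoplasts, CHX called 25 of 32 tested members, 20 higher and 5 lower, beside 48.1% of all 18674 genes tested (23.6% higher, 24.5% lower). The median log2 fold change of the tested members was 2.23, beside -0.02 over all genes. The 20 higher and this median include the row of MYC2. Without MYC2, whose counts cannot be assigned as described below, the members took 0.265% to 0.292% of counts in EV_mChx and 1.30% to 1.40% in EV_pChx. The summed photosynthesis list also stood higher with CHX, at 24.3 to 37.9 CPM with both vectors against 7.05 to 16.7 CPM without, and its part in these results was not tested. Of its 3 genes tested, CA1 and GAPA were called higher with either vector (with EV 2.86 ± 0.32 and 1.2 ± 0.39) and RCA was not called (-0.52 ± 0.46). Of 9 root markers tested, 1 was called lower with CHX in EV. Without scaling factors the calls in EV split 20 higher to 9 lower, the median of all genes moving to -0.30.

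LOX3 read 18.3, 26.2 and 17.4 CPM in EV_mChx and 2754, 2515 and 2758 CPM in EV_pChx (6.99 ± 0.19, adjusted p = 1.49e-17), and LOX4 read 26.3, 35.6 and 32.1 and 1932, 1713 and 1847 CPM (5.85 ± 0.15, adjusted p = 4.79e-18). OPCL1 read 43.9, 34.6 and 41.0 and 1367, 1411 and 1387 CPM (5.13 ± 0.14, adjusted p = 8.8e-18). All 3 moved far outside the spread between wells, and in all the groups did not overlap for 25 of the 32 members, beside 54.8% of all genes tested. AOS, OPR3 and AOC3 rose by 3.11 ± 0.13, 3.0 ± 0.14 and 2.62 ± 0.13, and AOC2 by 1.80 ± 0.44. AOC1 rose by 2.76 ± 0.84, adjusted p = 0.00987, with overlapping groups at 1.92, 0 and 0.186 and 1.73, 3.74 and 5.94 CPM, and its call was lost without EV_pChx replicate 3 (log2 fold change 2.28, adjusted p 0.0558). The other lipoxygenases did not follow, since LOX6 and LOX1 were lower (-0.71 ± 0.12 and -0.87 ± 0.15) and LOX5 did not pass (0.04 ± 0.32, adjusted p = 0.927).

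Of 11 JAZ genes tested, 9 were higher with CHX. JAZ7 read 2.89, 0 and 3.15 CPM without and 94.4, 85.1 and 90.8 CPM with CHX (5.63 ± 0.36, adjusted p = 1.5e-11), and JAZ8 read 6.73, 10.6 and 6.49 and 248, 205 and 176 CPM (4.68 ± 0.17, adjusted p = 1.14e-15). JAZ10 read 39.1, 39.9 and 29.3 and 477, 433 and 435 CPM (3.64 ± 0.14, adjusted p = 1.56e-15). These 3 repressors were low without CHX and did not overlap between groups. JAZ2 and JAZ6 rose by 3.57 ± 0.12, adjusted p = 1.54e-16 and 3.57 ± 0.20, adjusted p = 1.61e-12, from 45.2, 42.2 and 37.9 to 519, 488 and 477 CPM for JAZ2 and from 9.30, 5.95 and 8.35 to 110.0, 86.9 and 74.4 CPM for JAZ6. JAZ5, JAZ1, JAZ9 and JAZ3 rose by 3.51, 2.18, 1.28 and 1.17. JAZ12 was 104 ± 1.52 and 102 ± 2.65 CPM (n = 3, -0.03 ± 0.10, adjusted p = 0.819), and JAZ11 was lower (-0.57 ± 0.23, adjusted p = 0.0449). The JAZ11 call, with overlapping groups, was lost with DESeq2 (adjusted p = 0.0899), with RLE scaling (adjusted p = 0.0682), with the compared groups alone (adjusted p = 0.0614) and without EV_mChx replicates 1 or 2 or EV_pChx replicates 2 or 3 or TGA4_mChx replicate 2 or TGA4_pChx replicate 1 (log2 fold change -0.58 to -0.44, adjusted p 0.0532 to 0.175). JAZ4 had at most 2 counts in any library of this experiment and was not tested.

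Both breakdown enzymes rose, CYP94C1 from 3.53, 6.44 and 2.23 to 162, 153 and 149 CPM (5.18 ± 0.21, adjusted p = 4.43e-15) and CYP94B3 by 2.28 ± 0.13. The genes of conjugation and perception stayed level or fell slightly. JAR1 was lower, by 0.52 on the log2 scale. The synthesis gene ACX1 was lower too, by 0.28, against the rise of most synthesis genes. The ACX1 call was lost without EV_mChx replicate 3 or EV_pChx replicate 3 (log2 fold change -0.27, adjusted p 0.0508 to 0.0522), and with the compared groups alone (adjusted p = 0.0564). COI1, NINJA, MYC3 and MYC4 did not pass the test (with unscaled totals the first 3, and JAZ12, were called lower, by 0.31 to 0.47), with differences of -0.14 ± 0.13, -0.19 ± 0.11, -0.13 ± 0.13 and 0.05 ± 0.29, nor did AOC4 (0.02 ± 0.41).

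The TGA4 protoplasts gave a like result, with 19 members higher and 7 lower of 32, beside 45.9% of all genes (23.4% higher, 22.6% lower). Without scaling factors the calls split 18 higher to 11 lower. Of the members called in EV, 23 were called with TGA4, all in the same direction, and the share of all genes called with both vectors was not computed. The row of MYC2 is among these 23 and among the 19 higher. LOX3 read 43.4, 56.0 and 32.3 and 2492, 2992 and 2961 CPM (6.02 ± 0.19, adjusted p = 1.1e-16), and CYP94C1 read 2.25, 4.82 and 2.98 and 107, 129 and 128 CPM (5.2 ± 0.24, adjusted p = 5.03e-14). LOX4 read 58.4, 52.6 and 56.0 and 1392, 1803 and 1798 CPM (4.90 ± 0.14, adjusted p = 5.28e-17). OPCL1 read 48.3, 51.1 and 44.5 and 1189.5, 1557 and 1374 CPM (4.85 ± 0.14, adjusted p = 4.12e-17). As with EV, the libraries with CHX lay above those without in each of these genes. JAZ7 read 1.87, 5.56 and 2.98 and 71.7, 89.3 and 121 CPM (4.77 ± 0.36, adjusted p = 2.11e-10). COI1, MYC3 and MYC4 were called lower here (-0.47 ± 0.14, -0.39 ± 0.14 and -0.90 ± 0.32), which was not shown to differ from EV, since their interaction tests gave adjusted p of 0.794, 0.865 and 0.735. MYC3 lost its call without TGA4_mChx replicates 2 or 3 or TGA4_pChx replicate 2 (log2 fold change -0.40 to -0.31, adjusted p 0.0595 to 0.142), and with DESeq2 (adjusted p = 0.0579). MYC4 lost its call without TGA4_mChx replicates 1 or 2 or TGA4_pChx replicate 2 (log2 fold change -0.91 to -0.57, adjusted p 0.0512 to 0.194). JAZ11, lower by 0.72 on the log2 scale, had overlapping groups and lost its call without TGA4_mChx replicates 1 or 2 or TGA4_pChx replicates 1 or 3 (log2 fold change -0.70 to -0.52, adjusted p 0.0633 to 0.145). AOC2, higher by 0.77 ± 0.30, lost its call without TGA4_mChx replicates 1 or 2 or TGA4_pChx replicates 2 or 3 (log2 fold change 0.59 to 0.83, adjusted p 0.0541 to 0.22), and had an adjusted p of 0.0573 with the replicate block and of 0.230 with unscaled totals.

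The protoplast and CHX comparisons share no library. Of the 29 members called in Protoplast_0N against Root_0N and the 25 called with CHX in EV, 23 were in both lists (79.3% and 92.0% of each), and 21 of these had the same direction. This stands beside a large background. Among genes tested in both comparisons, 95.8% of the members called with CHX were also called in protoplasts against roots, and 89.9% of all 8323 genes called with CHX. Of those called in both, 91.3% of members and 78.8% of all genes had the same direction. LOX6 and ACX1 were the exceptions, both higher in protoplasts than in roots and lower with CHX. Among 36 other pathway genes, CHX in EV called 20 of 27 tested, 15 higher and 5 lower. The largest changes were those of TAT3 (8.31 ± 0.22), RRTF1 (6.90 ± 0.27), ERF1, an ethylene response factor gene (5.71 ± 0.38), DGL (3.92 ± 0.35), the TF gene NAC055 (3.87 ± 0.23) and AIB, a MYC2-like bHLH gene (2.74 ± 0.16).

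**Figure D4:**
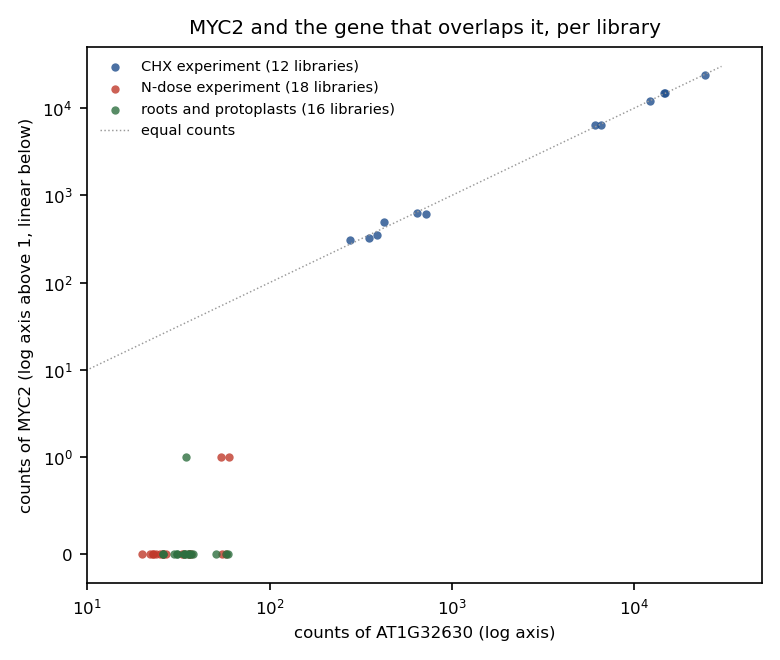
Raw counts of MYC2 (y axis) and of AT1G32630 (x axis), whose gene overlaps it on the other strand, with 1 point per library and a dotted line at equal counts. The 12 CHX libraries lie on that line between 276 and 24347 counts of AT1G32630, and the 34 other libraries lie at 0 or 1 count of MYC2.

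MYC2, the main TF of the pathway, could be followed in 1 experiment at best. The gene (AT1G32640, minus strand of chromosome 1) shares 3241 of the 3289 bases of its single exon with AT1G32630 on the opposite strand, and the tables treat such reads differently. In the 34 libraries of the N-dose and root experiments MYC2 had 0 or 1 count and AT1G32630 had 20 to 60. In the 12 CHX libraries MYC2 had 311 to 24042 counts and AT1G32630 had 276 to 24347, with a ratio between 0.855 and 1.17 in every library, so these reads cannot be told apart by gene. Under the row of MYC2, EV_mChx read 113, 99.6 and 117 CPM and EV_pChx read 3193, 2914 and 2897 CPM (4.78 ± 0.12, adjusted p = 4.79e-18), and TGA4 libraries rose by 4.42 ± 0.12. The groups did not overlap, and the rise belongs to the pair of genes and not to MYC2 alone.

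The last question was which members responded to TGA4. AOC2 and LOX6 were higher with TGA4 in all 5 comparisons with EV, and no member was lower in all of them. These comparisons are not independent, since those of 1 experiment share 1 lot of transfected cells per vector, per the methods. The share of all genes called in all 5 was not computed. The counts were small, at 8 of 31 tested members at 0N (6 higher and 2 lower, beside 8.86% of all genes, 5.74% higher and 3.13% lower), 7 at 5N (6 and 1, beside 7.89%, 5.41% higher and 2.48% lower) and 5 at 60N (4 and 1, beside 7.74%, 5.21% higher and 2.52% lower). In the CHX experiment they were 7 of 32 without CHX (6 and 1, beside 5.88%, 2.91% higher and 2.97% lower) and 3 with CHX (2 and 1, beside 1.92%, 0.948% higher and 0.969% lower). The median log2 fold change of the members was 0.10, 0.14 and -0.01 at 0N, 5N and 60N. Without scaling factors the median of all genes in the N-dose comparisons moved to between -0.24 and -0.16, and the calls split 2 higher to 5 lower at 0N and 3 to 5 at 60N. At 0N LOX3, AOC3, JAR1 and JAZ7 then missed the threshold, at 5N JAR1 and JAZ8, and at 60N AOC3, while AOC2 and LOX6 passed it at all 3 doses. In the CHX experiment LOX6 missed the threshold without CHX under that alternative (adjusted p = 0.0526).

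The root marker list stood lower in the TGA4 libraries, at 62.6 to 87.2 CPM against 92.5 to 119 CPM with EV in the N-dose experiment, at 129 to 147 against 188 to 212 CPM without CHX and at 93.8 to 126 against 159 to 169 CPM with CHX. Of the markers tested (8 in the N-dose and 9 in the CHX experiment), those called lower with TGA4 were WOL at 0N, CASP1 at 5N, none at 60N, APL, CASP1 and PIN2 without CHX, and APL and CASP1 with CHX. None was called higher, and the part of these markers in the TGA4 results was not tested.

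AOC2, 1 of 4 allene oxide cyclase genes, gave the largest response. It read 0.324, 0.595 and 0.812 CPM with EV and 9.56, 9.01 and 11.4 CPM with TGA4 at 0N (4.09 ± 0.37, adjusted p = 1.88e-07), 0.341, 1.07 and 0 and 8.53, 12.2 and 9.62 CPM at 5N (4.41 ± 0.41, adjusted p = 2.71e-07), and 0.566, 0.611 and 0.635 and 10.2, 11.8 and 10.9 CPM at 60N (4.15 ± 0.37, adjusted p = 1.3e-07). Without CHX it read 0.641, 1.77 and 0.557 and 11.6, 8.15 and 13.3 CPM (3.35 ± 0.41, adjusted p = 1.57e-05), and with CHX 3.72, 4.92 and 2.61 and 16.5, 22.9 and 16.9 CPM (2.32 ± 0.32, adjusted p = 0.00012). No EV library reached any TGA4 library of the same comparison, although the gene stayed low beside its neighbour AOC3, which held 559.8 ± 20.2 CPM per kb in TGA4_60N where AOC2 held 8.43 ± 0.617. AOC3 read 699, 709 and 639 CPM with EV and 911, 968 and 909 CPM with TGA4 at 60N (0.45 ± 0.12, adjusted p = 0.022) and rose by 0.50 ± 0.12 and 0.62 ± 0.12 at 0N and 5N. The 60N call of AOC3 was lost without EV_60N replicate 3 or TGA4_60N replicates 1, 2 or 3 (log2 fold change 0.40 to 0.46, adjusted p 0.056 to 0.0994). AOC1 and AOC4 were not called in any of the 5 comparisons.

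LOX6 read 58.3, 62.2 and 59.9 CPM with EV and 143, 171 and 143 CPM with TGA4 at 0N (1.34 ± 0.12, adjusted p = 1.91e-07), 66.5, 56.2 and 66.3 and 164, 208 and 157 CPM at 5N (1.48 ± 0.12, adjusted p = 5.34e-08), and 63.6, 76.3 and 68.7 and 199, 215 and 189 CPM at 60N (1.53 ± 0.12, adjusted p = 3.02e-08). The groups did not overlap at any dose, as was true of 29.8%, 23.9% and 27.7% of all genes tested at 0N, 5N and 60N. In the CHX experiment it read 133, 135 and 134 and 182, 194 and 165 CPM without CHX (0.42 ± 0.12, adjusted p = 0.0432) and 98.0, 77.2 and 69.4 and 132, 133 and 108 CPM with CHX (0.60 ± 0.13, adjusted p = 0.0111), again without overlap. The first of these calls was lost without EV_mChx replicates 1, 2 or 3 or EV_pChx replicate 2 or TGA4_mChx replicates 1, 2 or 3 or TGA4_pChx replicate 2 (log2 fold change 0.37 to 0.49, adjusted p 0.0538 to 0.181), and with unscaled totals (0.44, adjusted p = 0.0526). The second was lost without EV_pChx replicates 2 or 3 or TGA4_pChx replicate 2 (log2 fold change 0.50 to 0.56, adjusted p 0.0558 to 0.1). Whether the responses of the separate experiments differ was not tested. JAR1, which forms the active conjugate, read 52.8, 64.2 and 64.9 and 103, 92.6 and 89.0 CPM at 60N (0.65 ± 0.12, adjusted p = 0.00148) and 65.5, 58.6 and 62.8 and 108, 91.8 and 82.7 CPM at 0N (0.59 ± 0.12, adjusted p = 0.00282), and rose by 0.56 ± 0.12 at 5N.

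**Figure D5:**
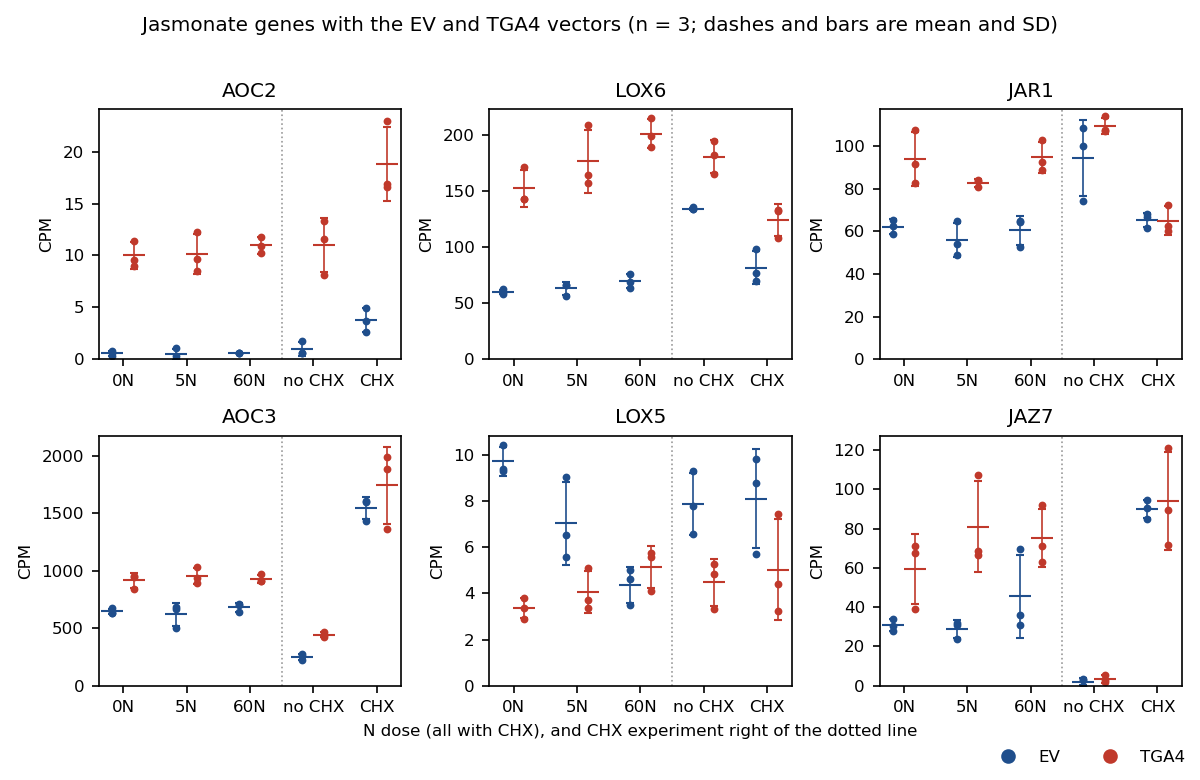
Level of 6 members in CPM with the EV (blue) and TGA4 (red) vectors at each N dose and, right of the dotted line, without and with CHX, with 1 point per library and dashes with bars for the mean and SD (n = 3). AOC2 and LOX6 are higher with TGA4 at every position, and LOX5 is lower with TGA4 at 0N, where the EV libraries are highest.

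Fewer members were lower. LOX5 read 9.32, 10.5 and 9.42 CPM with EV and 3.78, 2.91 and 3.38 CPM with TGA4 at 0N (-1.54 ± 0.22, adjusted p = 7.01e-05) and 5.57, 6.52 and 9.06 and 3.39, 5.12 and 3.70 CPM at 5N (-0.81 ± 0.23, adjusted p = 0.0328). At 60N it read 4.62, 5.00 and 3.49 and 5.77, 4.09 and 5.57 CPM (0.22 ± 0.22, adjusted p = 0.645). The groups were apart at 0N and 5N and overlapped at 60N, where the EV level was lower. Whether the TGA4 effect on LOX5 differed between doses depended on the tool (adjusted p = 0.605 with edgeR, 0.0201 with DESeq2), and the 5N call was lost without EV_5N replicate 3 or TGA4_5N replicates 1 or 3 (log2 fold change -0.74 to -0.58, adjusted p 0.124 to 0.171), and with the compared groups alone (adjusted p = 0.137). JAZ3, whose window holds TGACGT, read 179, 146 and 135 and 101, 111 and 109.6 CPM at 60N (-0.52 ± 0.12, adjusted p = 0.00718) and did not pass at 0N or 5N (-0.32 ± 0.12 and -0.19 ± 0.12). COI1 was lower at 0N (-0.42 ± 0.12, adjusted p = 0.0274), a call lost without EV_0N replicates 2 or 3 or TGA4_0N replicates 2 or 3 (log2 fold change -0.41 to -0.39, adjusted p 0.0703 to 0.123). CYP94C1 missed the threshold at 60N (edgeR adjusted p = 0.0575), and this depended on the settings. It was called lower with DESeq2 (-0.61, adjusted p = 0.0398) and with the replicate block (adjusted p = 0.0469). The compared groups alone (adjusted p = 0.0466), no low-count filter (adjusted p = 0.0118) and unscaled totals (adjusted p = 0.00975) also called it lower.

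JAZ7 was higher with TGA4 at 0N, where it read 28.0, 30.3 and 34 and 39.2, 67.8 and 71.4 CPM (0.95 ± 0.27, adjusted p = 0.0281), and at 5N, where it read 32.2, 31.1 and 23.6 and 68.6, 108 and 66.5 CPM (1.48 ± 0.27, adjusted p = 0.00112). JAZ8 was higher at 5N, where it read 233, 239 and 167 and 282, 433 and 307 CPM (0.68 ± 0.20, adjusted p = 0.0402), and LOX3 at 0N (0.54 ± 0.15, adjusted p = 0.0281). Their groups did not overlap. The 0N call of JAZ7 was nevertheless lost without EV_0N replicates 1 or 2 or TGA4_0N replicates 2 or 3 (log2 fold change 0.80 to 0.94, adjusted p 0.0906 to 0.124), that of JAZ8 without EV_5N replicates 1 or 3 or TGA4_0N replicate 2 or TGA4_5N replicates 2 or 3 or TGA4_60N replicates 1 or 3 (log2 fold change 0.47 to 0.75, adjusted p 0.0509 to 0.237) and with the compared groups alone (adjusted p = 0.0721), and that of LOX3 without EV_0N replicates 2 or 3 or TGA4_0N replicates 2 or 3 (log2 fold change 0.46 to 0.53, adjusted p 0.0812 to 0.144). Across the 3 doses, edgeR called 0 of 31 members for a TGA4 effect that differed with N (beside 0.00% of all genes). In that test 1 member had an unadjusted p under 0.05, beside 797 of all 18342 genes tested, and DESeq2 called 1 member. Of the other pathway genes, 28 were tested at 60N, and OPR2, a reductase gene that overlaps its neighbour OPR1, was higher (1.40 ± 0.23) and NAC019 lower (-0.55 ± 0.15).

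Without CHX, 4 members besides AOC2, LOX6 and LOX1 passed the test. LOX3 read 18.3, 26.2 and 17.4 CPM with EV and 43.4, 56.0 and 32.3 CPM with TGA4 (1.04 ± 0.19, adjusted p = 0.00138), and LOX4 read 26.3, 35.6 and 32.1 and 58.4, 52.6 and 56.0 CPM (0.81 ± 0.14, adjusted p = 0.00121). AOC3 read 272, 223 and 258 and 469, 440.3 and 424 CPM (0.82 ± 0.13, adjusted p = 0.000361), and JAZ10 was lower, at 39.1, 39.9 and 29.3 and 21.3, 19.6 and 16.5 CPM (-0.93 ± 0.16, adjusted p = 0.00117). These 4 pairs of groups did not overlap, which held for 23.7% of all genes tested. With CHX the differences were 0.07 ± 0.14 for LOX3, -0.14 ± 0.12 for LOX4, 0.18 ± 0.13 for AOC3 and -0.34 ± 0.12 for JAZ10, and none passed. With edgeR, LOX4 was the member whose TGA4 effect differed between the conditions by the interaction test (-0.95 ± 0.19, adjusted p = 0.0441, beside 0.129% of all genes called, 0.0214% higher and 0.107% lower), and it was lost without EV_mChx replicates 1 or 3 or EV_pChx replicates 1, 2 or 3 or TGA4_mChx replicates 1, 2 or 3 (log2 fold change -1.0 to -0.86, adjusted p 0.0612 to 0.142). For LOX3, AOC3 and JAZ10 the interaction gave adjusted p = 0.171, 0.312 and 0.53, so edgeR showed no difference. This depended on the tool and the filter, since DESeq2 called LOX3 as well as LOX4 (LOX3 -1.0, adjusted p = 0.00552), and edgeR without the filter on low counts called LOX3 (adjusted p = 0.000331) and AOC3 (-0.67, adjusted p = 0.0247). LOX1 was also higher without CHX (0.58 ± 0.15, adjusted p = 0.0245), with overlapping groups, and its call was lost without EV_mChx replicates 1 or 2 or TGA4_mChx replicates 2 or 3 (log2 fold change 0.45 to 0.54, adjusted p 0.0898 to 0.181). With CHX, JAZ2 was lower, at 519, 488 and 477 and 361, 364 and 394 CPM (-0.41 ± 0.10, adjusted p = 0.0358), and its call was lost without EV_pChx replicates 1, 2 or 3 or TGA4_mChx replicate 1 or TGA4_pChx replicates 2 or 3 (log2 fold change -0.45 to -0.37, adjusted p 0.0516 to 0.17) and with the compared groups alone (adjusted p = 0.0871).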

How the data were processed

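Poly(A) RNA was sequenced from 46 samples. The deposited values are raw counts per gene, which the authors made with TopHat2 against TAIR10 and Bioconductor packages. Whether counting used strand is not given in the sources used here. Each experiment was analysed in R 4.3.3 with edgeR 4.0.16 on its own count table: genes were kept by filterByExpr, totals were TMM-scaled, 1 mean was fitted per group, and quasi-likelihood tests were adjusted by Benjamini-Hochberg over all genes tested. SEs were derived from the fold change and the F statistic of the test. DESeq2 1.42.0 was an alternative, as were RLE scaling, library totals, no filter, a minimum change of 1 (log2) in either direction, the compared groups alone, a replicate block and leaving out each library. The script was tested on simulated counts. Libraries of the same group all differed by more than counting noise.

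The 34 members and the lists of other pathway and marker genes were chosen with earlier results of these data known. In each comparison the called members with the largest fold changes were named in full (up to 10 in Protoplast against Root at 0N, CHX in EV and TGA4 against EV at 60N, up to 5 elsewhere), with every member called in an interaction and up to 6 other pathway genes in those 3 comparisons. Shared replicate numbers were checked by the correlation of deviations from group means. Only EV at 60N and 0N exceeded 0.1 in every pair (0.124 to 0.216), so that comparison counted as paired by the data, not by the labels. Upstream sequences and coordinates come from RefSeq's TAIR10.1, and gene names from its table.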

Additional observations from a re-analysis of the deposited data

Results flagged for a closer look

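Of 125 sets of 4 libraries (1 member in 1 Root or Protoplast group), 9 had 1 library farther from the others than Dixon's 95% limit allows, and chance alone gives about 1 in 20. In Protoplast_0N, replicate 1 was the highest for AOS (759 CPM, others 545 to 568), OPR3 (973 CPM, others 660 to 706), OPCL1 (2341 CPM, others 2036 to 2065) and JAZ10 (628 CPM, others 425 to 431). Replicate 2 of that group was the highest for JAZ5 (1072 CPM, others 1041 to 1045), and replicate 3 the lowest for JAR1 (74.8 CPM, others 80.9 to 82.2). LOX3 in Root_0N replicate 2 (0.334 CPM, others 0.244 to 0.256), JAZ6 in Root_60N replicate 1 (18.9 CPM, others 14 to 14.6) and JAZ7 in Protoplast_60N replicate 1 (33.6 CPM, others 70.4 to 77.7) also stood apart.

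The log2 effect of 60N against 0N in protoplasts minus that in roots passed the interaction test for 13 members, at 2.01 for CYP94C1, 1.46 for JAZ10, 1.06 for OPCL1, 0.95 for MYC4, 0.90 for AOC3, 0.89 for JAZ5, 0.82 for JAR1, 0.81 for JAZ3, 0.67 for LOX6, -0.94 for ACX1, -1.22 for JAZ9, -1.99 for LOX3 and -2.11 for CYP94B3. The log2 effect of TGA4 on LOX4 with CHX minus that without was -0.95 (edgeR adjusted p = 0.0441).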

How the results depend on the processing

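Of 3718 recomputed values of the 179 called member results, 3545 kept their direction and their side of the threshold, 168 missed the threshold and 5 changed sign. Those 5 arose with library totals in Protoplast against Root, which moved the median of all genes from -0.15 to -1.10 at 0N and from -0.12 to -0.95 at 60N: MYC3 (-0.25) and JAZ12 (-0.16) at 0N, and MYC3 (-0.42), JAZ12 (-0.18) and JAR1 (-0.10) at 60N. Library totals also gave 2 calls for N in protoplasts, 8 for TGA4 at 60N and 1 for 60N against 0N in EV. DESeq2 gave 2 calls for N in protoplasts, 2 for the TGA4 by CHX interaction, 1 for the TGA4 by N interaction and 1 each for 5N against 0N in EV and 60N against 0N in TGA4. Without a filter, the last pair had 1 call each and the TGA4 by CHX interaction 3. With the compared groups alone, 60N against 0N had 0 calls in EV and 5 in TGA4. The cause of these changes was not tested. The share of all genes called under each alternative setting is not given in this section. Its counts of calls therefore describe the members alone. A minimum log2 change of 1 in either direction left 10 calls for N in roots, 0 for N in protoplasts, 6 for the tissue by N interaction, 2 and 1 for TGA4 without and with CHX, 0 for the TGA4 by CHX interaction, 3, 3 and 2 for TGA4 at 0N, 5N and 60N, and 1 for 60N against 0N in EV, by its own construction.

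With the replicate number as a block, 60N against 0N in EV kept 2 calls, and 60N against 0N in TGA4 had 1, which was JAZ8. TGA4 at 60N had 7, TGA4 at 5N 8, Protoplast against Root at 60N 29, the tissue by N interaction 12 and CHX in TGA4 25. The pairs correlated at -0.0816 to 0.206 outside the paired comparison, so these samples were not counted as paired. The check cannot show that no weaker pairing exists, since in TGA4 against EV with CHX the pairs correlated at 0.0129 to 0.206.

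Leaving out 1 library at a time gave 29 to 29 calls for Protoplast against Root at 0N, 29 to 30 at 60N, 19 to 24 for N in roots, 0 to 1 for N in protoplasts, 10 to 16 for the tissue by N interaction, 22 to 25 for CHX in EV, 22 to 26 for CHX in TGA4, 5 to 7 and 1 to 3 for TGA4 without and with CHX, and 0 to 1 for the TGA4 by CHX interaction. It gave 5 to 9, 5 to 8 and 4 to 6 for TGA4 at 0N, 5N and 60N, 0 to 0 for the TGA4 by N interaction, 1 to 3 and 0 to 1 for 60N and 5N against 0N in EV, and 0 to 1 and 0 to 0 for the same in TGA4. Without EV_mChx replicate 2 TGA4 had 5 calls without CHX, and without EV_5N replicate 3 it had 5 at 5N.

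LOX2, AOC1, AOC2 and JAZ4 were near the floor of 3 counts in several groups, where small differences are not detectable at this depth, and reads of overlapping genes cannot be told apart.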

Other observations

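The Protoplast_60N libraries received neither CHX nor DEX, and 19 members that were higher with CHX in EV can be set beside both CHX groups, MYC2 being left out. For 18 of them the Protoplast_60N mean lay nearer to EV_pChx than to EV_mChx. For 17 every Protoplast_60N library lay above every EV_mChx library, and the median ratio of the Protoplast_60N mean over the EV_mChx mean was 13.9 (1.66 to 182). Among all 4077 genes higher with CHX in EV that had counts in each group, 69.1% were nearer to EV_pChx, and 67.6% of all 17517 genes tested. Of the members that were not higher with CHX, 2 of 5 lower ones and 6 of 7 with no call were nearer to EV_pChx. The tables were scaled and counted separately, so this is a description across experiments with no test.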
